A study of Mus musculus with 20 samples.

Results

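Livers of 4-week-old mice labelled OGTL KO (KO) were compared with livers of 4-week-old mice labelled OGTL WT (WT). Each group had 5 arrays, and these 10 arrays were chosen by their titles from the 20 Clariom S Mouse arrays of the series, which also holds WT and KO livers at 8 weeks of age. RNA was extracted from powdered, snap-frozen liver tissue. The series text gives 5 mice per group. The Cre driver, the deleted exons, the strain, the sex and the diet are not stated in the labels, and nothing says how the mice were paired or housed. P-values therefore measure the spread between these samples. Signal of the Y-linked gene Eif2s3y was 11.17 to 12.09 in WT and 11.08 to 11.33 in KO, so that a Y-linked transcript was well above background in each of the 10 arrays.

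Ogt encodes O-GlcNAc transferase, the only enzyme known to add single N-acetylglucosamine sugars to serines and threonines of proteins inside the cell. Oga encodes the hydrolase that removes the sugar, and the donor UDP-GlcNAc comes from the hexosamine pathway, which draws on glucose, glutamine, acetyl-CoA and uridine. In liver the modification is found on transcription factors, signalling kinases and metabolic enzymes and responds to feeding. The comparison asks which liver transcripts differ when Ogt is targeted.

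Values are the deposited log2 signals, and differences are KO minus WT in log2 units, so that 1 unit is a 2-fold difference. Per-array values are listed for WT arrays 1 to 5 and KO arrays 1 to 5 in that order, and means are given with their SD (n = 5 arrays per group unless stated). Genes with a limma adjusted p below 0.05 over the 19505 tested are called higher or lower. A group mean was taken as not above background when it was at or below 5.02 in WT or 5.04 in KO, the 95th percentile of 1410 olfactory and vomeronasal receptor genes, and a difference against such a mean is stated as "at least". The deposited values reach 19.85, above the 16 that a 16-bit scanner allows on a log2 scale, so the scale may be stretched and differences among the brightest transcripts need not be true folds. Tissue RNA cannot tell fewer cells of a type from less RNA per cell.

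At 4 weeks 917 genes were higher and 1068 were lower in KO liver, which is 10.2% of all genes tested (4.70% higher and 5.48% lower). Counts in the gene lists below are to be read beside these 2 shares. Of 42 interferon-stimulated genes 36 were higher and of 46 NRF2 target and NADPH supply genes 26, together with the macrophage elastase gene Mmp12, the collagenase gene Mmp13 and alpha-fetoprotein. Among lists with more lower than higher calls, 11 of 23 cholesterol genes, 12 of 31 steroid dehydrogenase and aldo-keto reductase genes and 12 of 33 female-biased genes were lower. Drug metabolism was mixed, with 11 of 45 P450 genes lower and 3 higher, and 7 of 24 glutathione S-transferase genes lower and 8 higher. Albumin and the transcription factor gene Hnf4a did not pass the test. The albumin signal lay at the top of the scale, where a fall may not show, and 9 of 27 major secreted protein genes were lower. At a difference of 2-fold or more, 312 genes were higher (1.60%) and 319 lower (1.64%). The 5 WT and 5 KO arrays did not overlap for 1667 genes (8.55%). With array medians set equal, which moved the median of all genes from 0.00 to -0.06, 716 genes were higher and 1349 lower, so that the share of higher genes among the called was 34.7% in place of 46.2%.

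Every array carried hepatocyte transcripts at high level. Alb was 19.83 ± 0.01 in WT and 19.82 ± 0.03 in KO, and Ttr was 19.36 ± 0.04 and 19.33 ± 0.04. Arrays WT 4, KO 4 and KO 5 also carried skeletal muscle transcripts. The muscle actin gene Acta1 was 4.88, 4.76, 6.11, 15.89 and 4.72 in WT and 4.63, 4.58, 4.74, 15.04 and 15.43 in KO. The mean of 24 muscle markers was 13.18 in WT 4, 11.65 in KO 4 and 11.13 in KO 5, against 4.63 to 5.58 in the other 7 arrays. None of the 24 markers was called by limma and 0 had an unadjusted p below 0.05. This test cannot show that the groups were balanced, because these arrays widened the spread within both groups. The SD of Acta1 was 4.85 in WT and 5.80 in KO. Both groups held such arrays, but not in equal number. The median difference of the 24 markers was 0.86 with all arrays and -0.16 with the other 7 arrays. WT 1 stood apart in another way, with the highest WT signal of interferon-gamma inducible GTPases and serum amyloid genes, given with those genes below.

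**Figure D1:**
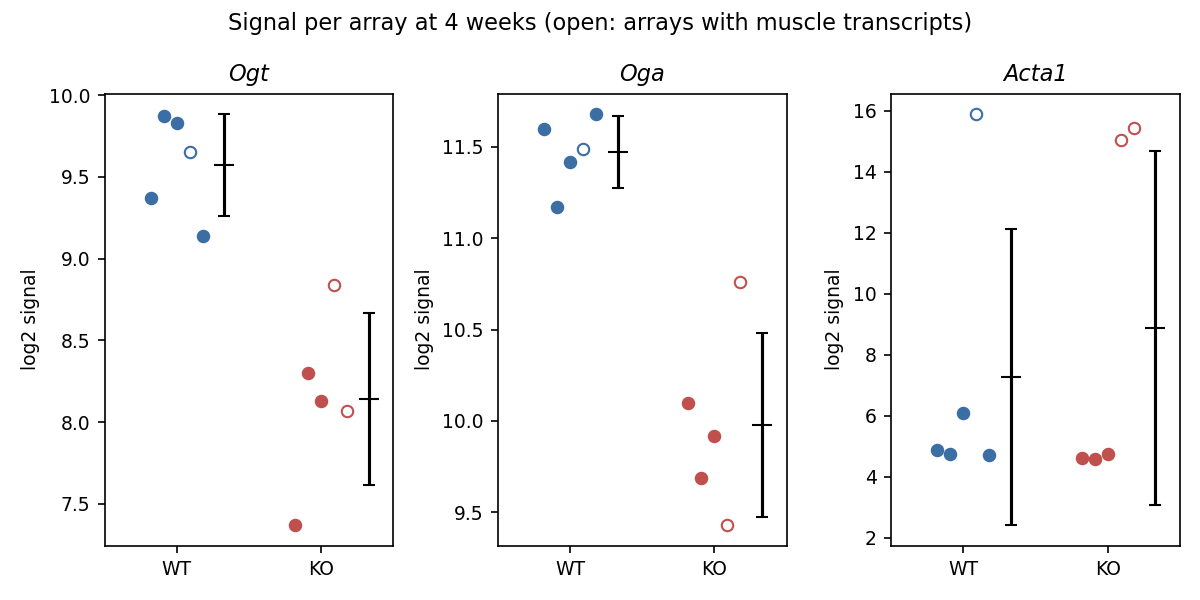
Log2 signal of Ogt, Oga and the muscle actin gene Acta1 in each array at 4 weeks, with the group mean and SD beside the points. Ogt and Oga do not overlap between WT and KO, and Acta1 exceeds 15 in the 3 arrays with muscle transcripts (open circles).

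Every comparison was repeated without those 3 arrays, leaving 4 WT and 3 KO arrays at 4 weeks. In this repeat 8.56% of genes were called, 695 higher (3.56%) and 975 lower (5.00%). Of the 1985 genes called with all 10 arrays, 1346 (67.8%) were called again, 549 of them higher (2.81% of all genes) and 797 lower (4.09%). The other 639 kept the sign of their difference and missed the threshold, and 324 genes were called only without the 3 arrays. No called gene changed sign. Values without the 3 arrays are given below as 7-array differences.

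**Figure D2:**
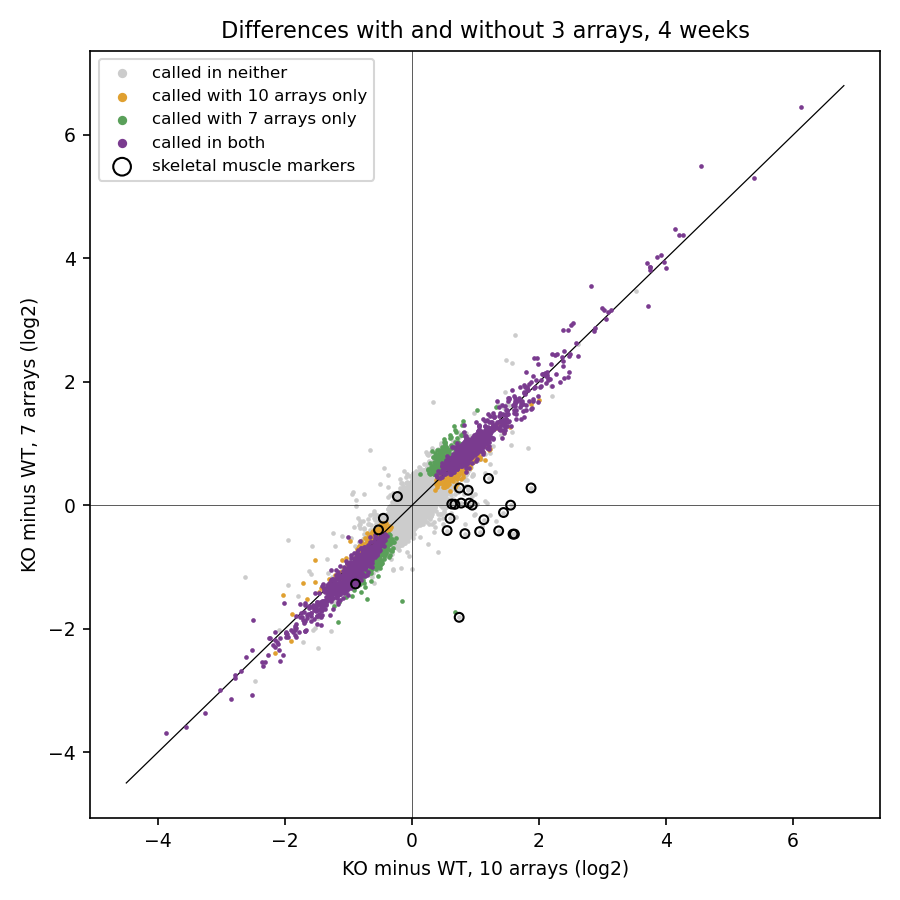
KO minus WT log2 difference of every gene with all 10 arrays (horizontal axis) and with the 7 arrays left after removing the arrays with muscle transcripts (vertical axis). The 1346 genes called in both lie along the diagonal, whereas most of the 24 skeletal muscle markers (black circles) lie to the right with a 7-array difference near 0.

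Ogt fell in KO liver but remained well above background. Its signal was 9.37, 9.87, 9.83, 9.65 and 9.14 in WT and 7.37, 8.30, 8.13, 8.84 and 8.07 in KO. The groups did not overlap, and KO 4 was the highest KO array and KO 1 the lowest. The difference was -1.43 (SE 0.20, limma adjusted p = 8.82e-05), which is 37.1% of WT, and the 7-array difference was -1.62. The exact two-sided permutation p was 0.00794, the smallest that 5 against 5 arrays can give. The Ogt feature is TC0X00000981.mm.2, and the exons it covers are unknown here, so its signal does not measure intact transcript.

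Oga, the O-GlcNAc hydrolase gene, fell as well. It was 11.60, 11.17, 11.42, 11.49 and 11.68 in WT and 10.10, 9.69, 9.92, 9.43 and 10.76 in KO, with no overlap (difference -1.49, SE 0.23, adjusted p = 1.78e-04, 7-array difference -1.56). The only other called member among 15 genes of O-GlcNAc cycling and hexosamine synthesis was Uap1l1, a paralog of the enzyme that makes UDP-GlcNAc. Uap1l1 was 5.56, 5.09, 5.52, 5.86 and 5.12 in WT and 7.38, 7.15, 7.02, 7.26 and 6.22 in KO, so that all KO arrays were above all WT arrays (difference 1.58, adjusted p = 3.09e-04, 7-array difference 1.86).

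**Figure D3:**
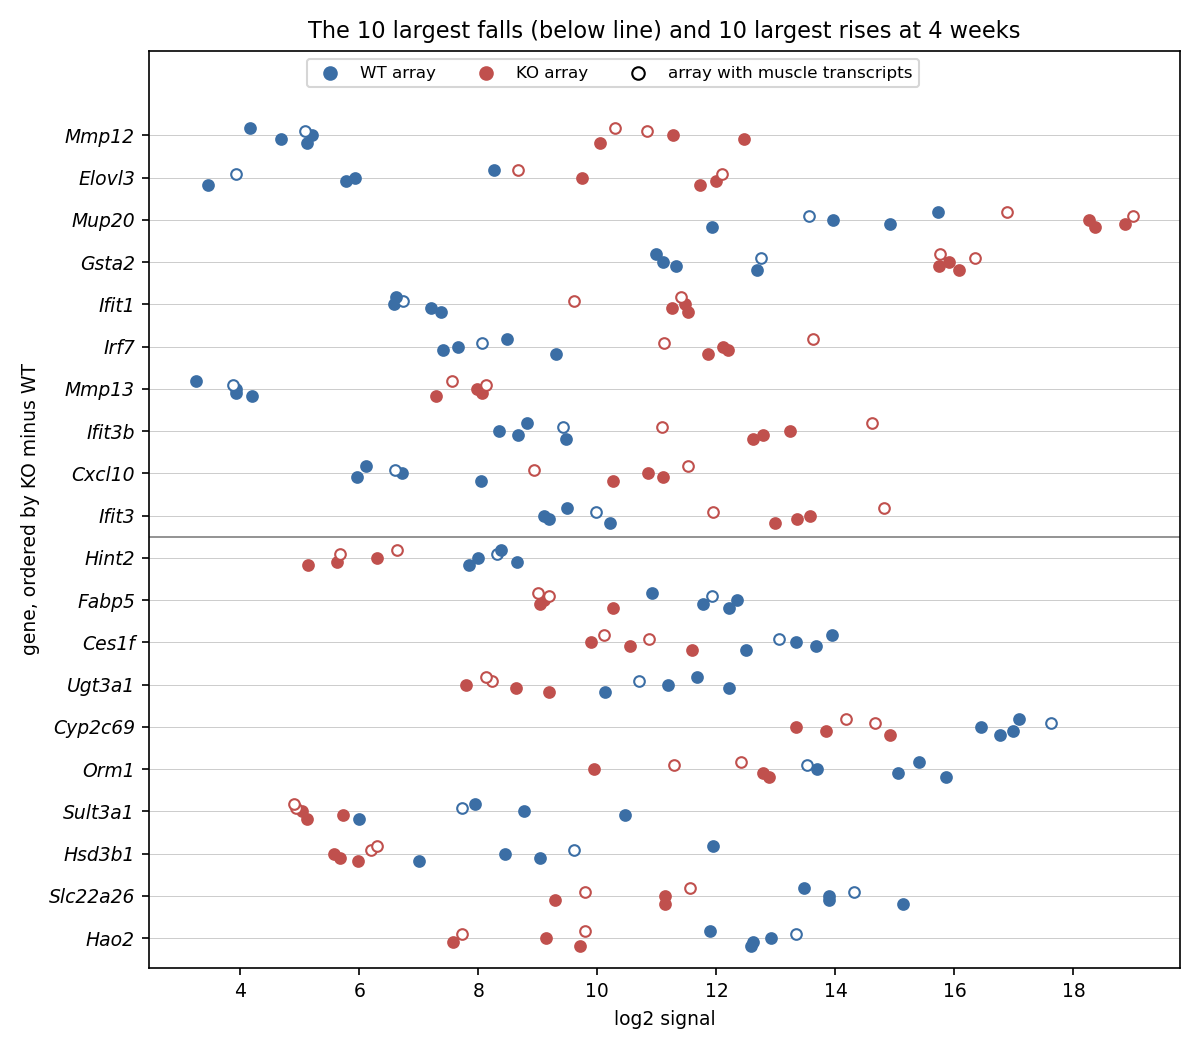
Log2 signal per array of the 10 largest rises (upper part) and 10 largest falls (lower part) among genes called with and without the arrays with muscle transcripts and whose groups do not overlap. Mmp12 has the widest gap, from at most 5.21 in WT to at least 10.04 in KO.

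The largest rise was that of Mmp12, which encodes macrophage elastase. It was 5.12, 4.69, 5.21, 5.09 and 4.17 in WT and 10.04, 12.46, 11.27, 10.84 and 10.29 in KO. The WT mean was not above background, so the rise was at least 5.96 log2 units (measured difference 6.12, SE 0.52, adjusted p = 3.60e-07). Mmp13, a collagenase gene, was 3.26 to 4.20 in WT and 7.29 to 8.12 in KO, a rise of at least 2.78 (adjusted p = 1.96e-07). Elovl3, which encodes an elongase of very long saturated fatty acids, was 3.46, 5.78, 5.92, 3.93 and 8.26 in WT and 11.73, 11.99, 9.75, 12.10 and 8.67 in KO. Its groups were separated by 1 WT array at 8.26 and 1 KO array at 8.67, and its SD was 1.90 in WT and 1.55 in KO (difference 5.38, adjusted p = 1.19e-04, 7-array difference 5.30).

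Among falls Hao2 had the largest, a peroxisomal hydroxy acid oxidase gene. It was 12.59, 12.62, 12.91, 13.34 and 11.90 in WT and 9.71, 7.57, 9.14, 7.73 and 9.80 in KO (difference -3.88, SE 0.36, adjusted p = 9.24e-07). Slc22a26, an organic anion transporter gene, followed with a mean of 14.14 ± 0.63 in WT and 10.58 ± 0.98 in KO (difference -3.57, adjusted p = 1.30e-04). Hsd3b1, a 3-beta-hydroxysteroid dehydrogenase gene, was 9.20 ± 1.81 in WT and 5.94 ± 0.31 in KO (difference -3.26, adjusted p = 3.91e-04). The WT arrays of Hsd3b1 spread over a far wider range than the KO arrays. All lay above them, as the choice of the 10 largest falls required. Fabp5, a fatty acid binding protein gene, fell from 11.84 ± 0.56 to 9.32 ± 0.53 (difference -2.52), and Hint2, which encodes a mitochondrial nucleotide hydrolase, fell from 8.24 ± 0.32 to 5.87 ± 0.60 (difference -2.37).

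Among the genes with the smallest adjusted p, Trmt10a, a tRNA methyltransferase gene, rose from 7.59 ± 0.30 to 9.95 ± 0.52 (difference 2.36, SE 0.20, adjusted p = 3.60e-07). Ms4a4c, a membrane-spanning protein gene of the Ms4a family, rose from 5.93 ± 0.33 to 9.06 ± 0.64 (difference 3.13). On the falling side Dlg3, a membrane-associated guanylate kinase gene, was 8.69, 8.61, 9.04, 8.68 and 8.76 in WT and 6.86, 7.03, 7.52, 6.70 and 7.53 in KO (difference -1.63, adjusted p = 1.65e-06). Ndufa3, a complex I subunit gene, went from 12.49 ± 0.20 to 10.89 ± 0.31 (difference -1.60, adjusted p = 1.24e-06). The arrays of these 4 genes did not overlap between the groups.

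Type I interferons act through a surface receptor and transcription factors that include IRF9, which bind a short element with repeated GAAA letters near the start of their target genes. The targets encode antiviral proteins, sensors of foreign RNA and regulators of the response itself. The promoters of 3 of the most clearly rising targets are printed here because each holds that element. They are RefSeq windows of GRCm38.p6, from 250 bases before to 50 bases after the gene start, 5′ to 3′ on the gene's strand, with each match to the core of the interferon-stimulated response element in capitals. The core searched is GAAA, any 2 bases and GAAA again, on either strand. Ifit1 lies on the plus strand at chr19:34640639-34640938, Rsad2 on the minus strand at chr12:26456403-26456702 and Ifit3 on the plus strand at chr19:34583279-34583578.
Ifit1: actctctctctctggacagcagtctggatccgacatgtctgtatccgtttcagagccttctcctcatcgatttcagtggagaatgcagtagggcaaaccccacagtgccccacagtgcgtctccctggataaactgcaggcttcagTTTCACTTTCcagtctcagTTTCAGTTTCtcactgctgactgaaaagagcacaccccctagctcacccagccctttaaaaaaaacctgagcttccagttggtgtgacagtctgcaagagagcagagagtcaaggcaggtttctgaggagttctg
Rsad2: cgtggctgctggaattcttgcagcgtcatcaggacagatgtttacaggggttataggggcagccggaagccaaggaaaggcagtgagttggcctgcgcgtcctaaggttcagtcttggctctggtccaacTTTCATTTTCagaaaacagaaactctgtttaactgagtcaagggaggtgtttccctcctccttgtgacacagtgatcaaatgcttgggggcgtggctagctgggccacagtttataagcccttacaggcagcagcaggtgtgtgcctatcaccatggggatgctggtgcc
Ifit3: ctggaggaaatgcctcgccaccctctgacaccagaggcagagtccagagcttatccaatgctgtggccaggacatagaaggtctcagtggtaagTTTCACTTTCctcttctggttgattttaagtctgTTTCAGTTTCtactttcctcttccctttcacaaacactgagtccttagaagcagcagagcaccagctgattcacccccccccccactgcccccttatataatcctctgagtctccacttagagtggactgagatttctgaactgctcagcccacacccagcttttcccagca

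In these windows the matches begin 104 and 85 bases before the Ifit1 start, 120 bases before the Rsad2 start, and 156 and 122 bases before the Ifit3 start. All 5 are read on the opposite strand, as TTTC repeats. Of the 36 interferon-stimulated genes called higher, 26 had a promoter entry and 12 of these (46.2%) held a match, as did 3 of 4 uncalled members with an entry. Among all 15691 tested genes with an entry, 618 (3.94%) held one. In the 250 bases before the start alone, the counts were 11 of 26 (42.3%) and 3.47% of genes. These counts describe letters in a window and are not evidence of binding.

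Type I interferon-stimulated genes rose as a group at 4 weeks. Of 42 measured members 36 were called higher (85.7%, against 4.70% of all genes) and 6 did not pass the test, with a median difference of 1.38 over all members against 0.00 over all genes. Leaving out any 1 array gave 35 to 37 higher, and leaving out the 3 arrays gave 33. The mean over the 42 members was 8.13, 7.61, 7.51, 7.48 and 7.48 in WT and 9.21, 9.45, 9.55, 8.72 and 9.74 in KO. WT 1 was thus the highest WT array and KO 4, an array with muscle transcripts, the lowest KO array. KO 4 had the highest Ogt signal of the KO arrays, and KO 1, the next lowest in this mean, had the lowest Ogt signal. A link between Ogt signal and this mean was not tested.

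Cmpk2, a nucleotide kinase gene next to Rsad2, was 7.99, 7.22, 7.01, 6.96 and 6.83 in WT and 10.79, 11.16, 11.42, 9.62 and 11.72 in KO (difference 3.74, SE 0.31, adjusted p = 3.54e-07, 7-array difference 3.86). Ifit1, whose product binds foreign RNA caps, was 7.38, 7.21, 6.58, 6.74 and 6.61 in WT and 11.53, 11.25, 11.47, 9.61 and 11.40 in KO (difference 4.15, adjusted p = 1.11e-06). Rsad2, which encodes viperin, was 8.38 ± 0.28 in WT and 12.13 ± 0.94 in KO (difference 3.74, adjusted p = 1.24e-06). In all 3 genes KO 4 was the lowest KO array and still lay above every WT array. For Ifit1, among the 10 largest rises, the choice required this separation.

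Ifit3, an Ifit1 partner gene, rose from 9.59 ± 0.49 to 13.34 ± 1.03 (difference 3.75), and Ifit3b from 8.95 ± 0.49 to 12.87 ± 1.27 (difference 3.92). These 2 are near-identical copies, and their signals cannot be assigned to 1 gene with certainty. Irf7, the transcription factor gene that amplifies interferon production, was 9.30, 7.40, 7.66, 8.06 and 8.48 in WT and 11.86, 12.20, 12.11, 11.12 and 13.62 in KO (difference 4.00, adjusted p = 1.92e-06). The interferon-inducible Ifi213 rose from 7.38 ± 0.27 to 9.67 ± 0.54 (difference 2.29, adjusted p = 4.26e-07).

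Feedback and effector genes rose too, as shown by 3 members named here after their values were seen. Usp18, the protease gene that removes ISG15 and dampens the receptor, rose from 9.20 ± 0.54 to 12.06 ± 0.38 (difference 2.86, adjusted p = 1.10e-05). The dynamin-like GTPase gene Mx1 was 5.59, 5.19, 5.11, 4.50 and 5.29 in WT and 6.82, 7.37, 7.50, 6.44 and 8.57 in KO (difference 2.20). Isg15, the ubiquitin-like modifier gene, was 6.99, 5.24, 5.38, 5.13 and 5.30 in WT and 7.61, 6.99, 8.76, 6.55 and 10.11 in KO (difference 2.40, adjusted p = 0.00218), so that WT 1 overlapped the KO arrays. The 6 members that did not pass, named here because they are the exceptions, were Oas2 (difference 0.37), Oas3 (0.19), Ifi44l (-0.15) and Ifi27l2a (0.47), each not above background in either group, and Ifitm3 (0.41, adjusted p = 0.0844) and Bst2 (1.22, adjusted p = 0.146). Oas2 passed without WT 4 (adjusted p = 0.0473) and Ifitm3 without WT 1 (adjusted p = 0.0461).

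Among 27 genes of nucleic acid sensing, interferons and their receptors 9 were higher, 1 was lower and 17 did not pass the test, and 8 were higher without the 3 arrays. Tyk2, a receptor kinase gene named after its values were seen, was the 1 lower member (difference -0.49, adjusted p = 0.0376). Tyk2 lost its call without the 3 arrays (adjusted p = 0.0929), under the replicate block (0.0697), with quantile normalization (0.0657), with an intensity trend (0.0507) and on leaving out any 1 array other than WT 4 (0.0554 to 0.0945). The number of lower members was 0 without WT 1, WT 2, WT 3, WT 5, KO 1, KO 2 or KO 4 and 2 without WT 4. Ifih1, the gene of the RNA sensor MDA5, rose from 11.02 ± 0.26 to 12.23 ± 0.33 (difference 1.21, adjusted p = 7.17e-05), and Adar, the RNA-editing enzyme gene, from 8.74 ± 0.13 to 9.79 ± 0.41 (difference 1.05). Samhd1, a nucleotide hydrolase gene, rose from 8.93 ± 0.84 to 10.80 ± 0.41 (difference 1.87), with WT 1 at 10.25 overlapping the lowest KO array at 10.09. The interferon-beta gene Ifnb1 was 5.04 ± 0.31 in WT and 5.02 ± 0.24 in KO, at the background level (difference -0.03, adjusted p = 0.948). The chemokine gene Cxcl10, an interferon target, is given with the chemokines.

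Interferon-gamma inducible GTPases gave a count that turned on 1 array. Of 11 measured members 5 were higher with all arrays, 3 without the 3 arrays, and all 11 without WT 1. Leaving out WT 2, WT 3, WT 5, KO 2, KO 3 or KO 5 also gave 3. Gbp3 was 10.15, 7.21, 7.33, 7.51 and 7.13 in WT and 9.84, 10.39, 10.39, 9.26 and 11.35 in KO (difference 2.38, adjusted p = 0.00107, 7-array difference 2.25). Gbp9 rose from 7.12 ± 0.77 to 8.84 ± 0.56 (difference 1.72). In both genes only WT 1 lay within the KO range. The mean over the 11 members was 12.59 in WT 1, 8.39 to 8.91 in the other 4 WT arrays and 10.21 to 11.79 in KO, so WT 1 was above every KO array. The GTPase gene Igtp, named after its values were seen, shows the spread: it was 14.12 in WT 1, 8.01 to 8.79 in the other WT arrays and 11.12 ± 0.76 in KO (difference 1.63, adjusted p = 0.225, and without WT 1 2.79, adjusted p = 3.66e-05).

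Antigen presentation genes rose in part. Of 17 MHC class I and antigen processing genes 7 were higher, 5 without the 3 arrays and 12 without WT 1. H2-Q4 rose from 8.72 ± 0.38 to 10.21 ± 0.33 (difference 1.49, adjusted p = 3.30e-05), H2-K1 from 16.05 ± 0.24 to 16.81 ± 0.11 (difference 0.75) and H2-D1 from 13.50 ± 0.24 to 14.65 ± 0.22 (difference 1.15), and none of the 3 overlapped between groups. The light chain gene B2m was 19.13 ± 0.21 in WT and 19.41 ± 0.10 in KO (difference 0.28, adjusted p = 0.121). Of 8 MHC class II genes 2 were higher with all arrays, H2-Aa (difference 1.88, adjusted p = 0.00835) and H2-Eb1 (difference 1.46, adjusted p = 0.00974). Without the 3 arrays neither passed, at 1.65 with an adjusted p of 0.0687 and 1.35 with 0.0646, and without WT 1 there were 4.

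Of 43 chemokine and receptor genes 9 were higher and 2 lower, and Cxcl10 and Cxcl9, whose products attract activated T cells, were among those that rose. In the 7-array fit 6 were higher and 2 lower, and 16 members were not above background in either group. Cxcl10 was 8.05, 5.96, 6.71, 6.60 and 6.12 in WT and 10.26, 11.11, 10.85, 8.94 and 11.53 in KO (difference 3.85, adjusted p = 1.65e-06). Cxcl9 was 11.89, 9.69, 9.67, 10.77 and 8.70 in WT and 12.95, 14.45, 14.34, 12.76 and 14.71 in KO (difference 3.70, adjusted p = 2.06e-04). Both were highest in WT 1 among WT and lowest in KO 4 among KO, with no overlap. Cxcl10 is among the 10 largest rises, which were taken only from genes without overlap. Ccl2, the monocyte attractant gene, was 6.39, 5.31, 5.14, 5.54 and 5.27 in WT and 6.56, 7.42, 6.40, 6.26 and 7.62 in KO (difference 1.32, adjusted p = 0.00193), and WT 1 lay inside the KO range. Ccl22, a chemokine gene of macrophages and dendritic cells, was 3.16, 3.05, 3.79, 3.25 and 3.12 in WT and 3.85, 5.54, 5.08, 4.88 and 4.40 in KO (adjusted p = 5.52e-04), with no overlap but with neither group mean above background.

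Of 28 genes of the NF-kB pathway, cytokines and adhesion 6 were higher, and the same number was found without the 3 arrays and on leaving out any 1 array. The Toll-like receptor gene Tlr2 was 6.14, 5.61, 5.63, 5.84 and 5.40 in WT and 6.76, 8.27, 8.51, 7.24 and 8.43 in KO (difference 2.12, adjusted p = 3.27e-05). The leukocyte adhesion genes rose with it, Vcam1 from 9.57 ± 0.36 to 10.94 ± 0.20 (difference 1.37) and Icam1 from 5.55 ± 0.28 to 6.39 ± 0.20 (difference 0.84), and neither overlapped. The tumour necrosis factor gene Tnf was 3.18 ± 0.23 in WT and 3.25 ± 0.25 in KO, not above background in either.

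Among 23 immediate early and stress transcription factor genes 3 were higher. Myc was 7.36, 6.32, 6.99, 7.28 and 5.84 in WT and 7.79, 8.62, 8.50, 9.45 and 9.37 in KO (difference 1.99, adjusted p = 0.00343), and Atf3 rose from 6.06 ± 0.55 to 7.18 ± 0.27 (difference 1.11). Jun, the third, was called with all arrays (difference 1.22, adjusted p = 0.0417) and not without the 3 arrays (0.90, adjusted p = 0.211) or without WT 1, WT 2, WT 5, KO 3, KO 4 or KO 5 singly. Without the 3 arrays 3 members were lower, and without KO 5 there were 2. Fos was 5.98 ± 0.61 in WT and 5.54 ± 0.64 in KO (adjusted p = 0.423).

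Acute phase genes did not move one way. Of 24 measured 1 was higher (4.17%) and 2 were lower (8.33%), against 4.70% and 5.48% of all genes. Saa3, a serum amyloid gene also made outside hepatocytes, was 8.81, 7.47, 7.05, 7.44 and 7.16 in WT and 9.21, 10.27, 9.64, 9.50 and 11.59 in KO (difference 2.46, adjusted p = 6.51e-04). Orm1, the orosomucoid gene, was 15.86, 15.06, 13.69, 13.52 and 15.41 in WT and 12.88, 12.79, 9.95, 11.29 and 12.41 in KO (difference -2.84, adjusted p = 0.00128), and Crp fell from 15.73 ± 0.20 to 15.07 ± 0.19 (difference -0.65). Saa1 was 11.93, 6.94, 6.92, 6.81 and 7.10 in WT and 8.50, 8.78, 8.01, 7.63 and 10.42 in KO (difference 0.73, adjusted p = 0.748). For Saa1, 4 WT arrays were below and WT 1 was above all KO arrays. The number of acute phase genes called higher was 3 without WT 1 and 2 without KO 3 or KO 5.

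Of 21 markers of monocyte-derived and lipid-associated macrophages 9 were higher, 1 was lower and 11 did not pass the test. Without the 3 arrays 9 were higher and 1 lower, and 8 genes were called higher both ways. Of the 21 markers 4 were not above background in either group. The summed log2 signal of the 21 was 157.6 to 167.7 in WT and 176.4 to 188.5 in KO. The lower member was Fabp5, which other liver cells also express. For the higher members, too, tissue RNA does not show which cells the signal came from. Apart from Mmp12, the tetraspanin gene Cd63 was 9.97, 8.84, 9.37, 10.08 and 8.95 in WT and 12.29, 12.45, 12.61, 13.10 and 11.86 in KO (difference 3.02, adjusted p = 6.88e-06), and Cd9 rose from 10.46 ± 0.47 to 12.50 ± 0.21 (difference 2.03). Gpnmb, a marker of lipid-laden macrophages named after its values were seen, was 4.06 to 4.57 in WT and 5.63 to 6.16 in KO, a rise of at least 0.91. The inflammatory monocyte marker Ly6c2, also named after its values were seen, was 5.81 ± 0.71 in WT and 8.79 ± 1.31 in KO (difference 2.98, adjusted p = 5.63e-04). Trem2 was 3.92 ± 0.17 and 4.25 ± 0.18, not above background in either group.

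Of 13 markers of resident Kupffer cells 10 did not pass the test and 3 were higher, with a summed log2 signal of 117.9 to 120.2 in WT and 118.9 to 126.3 in KO. Clec4f, which marks these cells, was 9.82 ± 0.35 in WT and 9.90 ± 0.26 in KO (difference 0.08, adjusted p = 0.900). Vsig4 (difference 0.02) and Timd4 (0.05), named after their values were seen, gave adjusted p-values of 0.972 and 0.943. Among the 3, Cd5l, which encodes a secreted macrophage protein, rose from 10.95 ± 0.52 to 12.09 ± 0.25 (difference 1.14, adjusted p = 0.00472). C6, a complement gene on the list, was 9.22 ± 0.52 and 11.01 ± 1.48 (difference 1.79, adjusted p = 0.0157), a call lost without KO 2 (1.52, adjusted p = 0.0541), and Spic lost its call without the 3 arrays (0.74, adjusted p = 0.149) and without WT 2 (0.97, adjusted p = 0.0666). The part of these cells in the rise of interferon targets, chemokines and Mmp12 was not tested.

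Among other blood cells, 13 neutrophil markers gave 0 calls in limma with 1 at an unadjusted p below 0.05, and 9 of the 13 were not above background. The defining marker S100a8 was 5.04 ± 0.50 in WT and 4.87 ± 0.42 in KO. Of 22 lymphocyte markers 16 were not above background in either group, and 2 were higher and 1 lower. Ptprc, the pan-leukocyte gene CD45, was 8.12, 8.06, 8.74, 8.16 and 7.83 in WT and 8.90, 9.27, 9.46, 9.12 and 9.55 in KO (difference 1.08, adjusted p = 0.00141), with no overlap. Cd3e (difference 0.78) and Zap70 (-0.60) were below background in both groups. The 8 erythroid markers gave 0 calls, and 1 had an unadjusted p below 0.05.

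Mmp12 and Mmp13 were the only matrix metalloproteinase genes whose calls held without the 3 arrays. Of 18 proteinase and inhibitor genes 4 were higher with all arrays and 2 without the 3 arrays, and also 2 without WT 2, WT 5 or KO 4. Adamts1 (difference 0.82, adjusted p = 0.0254) lost its call without the 3 arrays (0.54, adjusted p = 0.153), and the inhibitor gene Timp1, named after its values were seen, did so too (adjusted p = 0.188) and was not above background in either group. Mmp2, a gelatinase gene of fibroblasts, was 8.06 ± 0.35 in WT and 8.35 ± 0.59 in KO (adjusted p = 0.773).

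Markers of stellate cells, myofibroblasts and matrix showed 1 call among 31, and 5 members had an unadjusted p below 0.05. That member was Fn1, the fibronectin gene, which hepatocytes also express and which fell from 16.72 ± 0.12 to 16.01 ± 0.14 (difference -0.72, adjusted p = 3.94e-04). Without WT 2 the count was 3 and without KO 1 it was 2. The myofibroblast actin gene Acta2 was 9.79, 8.41, 9.52, 10.08 and 6.53 in WT and 8.75, 8.07, 8.93, 10.89 and 8.97 in KO (adjusted p = 0.859). Of 25 endothelial markers the single call was Stab2, which encodes a hyaluronan scavenger receptor of the sinusoids, which was 8.13, 8.53, 8.35, 8.04 and 8.07 in WT and 7.03, 7.07, 7.08, 7.53 and 7.07 in KO (difference -1.07, adjusted p = 0.00143). Leaving out WT 1 gave 3 endothelial calls.

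Of 28 keratin and cytoskeleton genes 9 were higher, 8 without the 3 arrays, among them both keratin genes of hepatocytes. Krt18 was 12.56, 11.10, 11.71, 11.80 and 11.16 in WT and 14.39, 13.89, 13.06, 13.77 and 13.72 in KO (difference 2.10, adjusted p = 1.08e-05), and its partner Krt8 rose from 12.95 ± 0.52 to 14.71 ± 0.53 (difference 1.76). Krt20 was 4.00, 3.73, 4.81, 6.05 and 3.82 in WT and 6.85, 6.66, 7.28, 8.11 and 5.36 in KO, a rise of at least 1.84 with WT 4 and KO 5 overlapping. The biliary keratin gene Krt19 was 5.95 ± 0.80 and 5.70 ± 0.17 (adjusted p = 0.806).

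Among 19 cholangiocyte and ductular genes 2 were higher. The secreted protein gene Wfdc2 was 5.32 to 5.66 in WT and 6.40 to 7.26 in KO (difference 1.19, adjusted p = 0.00125). Tspan8 was 5.34, 5.40, 6.47, 7.48 and 4.28 in WT and 8.32, 8.12, 8.45, 10.08 and 6.55 in KO (difference 2.51, adjusted p = 0.0177). Its call was lost without WT 5 (2.13, adjusted p = 0.0599) and without KO 4 (2.07, adjusted p = 0.0569), and the count was then 1.

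Alpha-fetoprotein, the fetal counterpart of albumin, rose in every KO array. Afp was 6.83, 6.36, 6.45, 6.58 and 6.53 in WT and 9.93, 8.74, 9.83, 8.13 and 8.81 in KO (difference 2.54, SE 0.31, adjusted p = 1.59e-05, 7-array difference 2.96). Of 15 fetal and imprinted genes 3 were higher and 1 lower, with 6 not above background. The imprinted gene Mest fell from 9.19 ± 0.80 to 7.92 ± 0.45 (difference -1.26, adjusted p = 0.00503). Cell cycle genes gave 0 calls among 34 in limma, with 4 at an unadjusted p below 0.05, and Mki67 was 10.25, 9.27, 11.70, 11.46 and 9.89 in WT and 11.80, 11.02, 10.53, 10.83 and 9.84 in KO.

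Of 30 cell death genes 5 were higher and 1 lower, and 4 and 1 without the 3 arrays. Tnfrsf12a, the receptor gene for TWEAK, was 7.91, 6.86, 8.02, 7.51 and 7.70 in WT and 9.58, 10.03, 9.73, 11.20 and 9.85 in KO (difference 2.48, adjusted p = 2.10e-05). Mlkl, the effector gene of necroptosis and itself an interferon target, was 10.39, 9.05, 9.26, 9.08 and 8.18 in WT and 11.37, 11.31, 10.69, 11.01 and 11.20 in KO (difference 1.92, adjusted p = 1.11e-04). Tnfsf10, the gene of the death ligand TRAIL, rose from 6.40 ± 0.37 to 7.66 ± 0.43 (difference 1.26). None of the 3 overlapped between groups. Without WT 4 the number of members lower was 2.

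p53 targets showed 4 higher and 1 lower of 28, and 2 and 1 without the 3 arrays. Mdm2, which encodes the ligase that degrades p53, rose from 10.06 ± 0.31 to 10.95 ± 0.32 (difference 0.88, adjusted p = 9.03e-04, 7-array difference 0.71). Dcxr, a carbonyl reductase gene on the list, fell from 11.39 ± 0.39 to 10.21 ± 0.54 (difference -1.18, adjusted p = 0.00371). The cell cycle inhibitor gene Cdkn1a was 12.07 ± 0.82 in WT and 11.93 ± 0.80 in KO (adjusted p = 0.944). Eda2r was called with all arrays (difference 1.06, adjusted p = 0.0116) and not without the 3 arrays (0.79, adjusted p = 0.112), and the number of members lower was 2 without WT 4.

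Of 39 unfolded protein response and ATF4 target genes 5 were higher (12.8%) and 1 lower (2.56%), against 4.70% and 5.48% of all genes. There were 3 higher without the 3 arrays, as also without WT 2 or WT 5. The lower member, the ligase subunit gene Sel1l, named after its values were seen (difference -0.66, adjusted p = 0.0337), missed the threshold without the 3 arrays (adjusted p = 0.178) and without WT 1, WT 2, WT 4, KO 3 or KO 4 singly. The transcription factor gene Ddit3 (CHOP) was 7.68, 7.49, 6.88, 7.24 and 7.34 in WT and 8.24, 8.73, 9.72, 8.94 and 9.97 in KO (difference 1.79, adjusted p = 7.75e-04). Fgf21, the stress and fasting hormone gene, was 4.13, 4.40, 4.29, 4.05 and 4.40 in WT and 5.38, 7.22, 7.65, 6.87 and 5.15 in KO, a rise of at least 1.44 (measured difference 2.20, adjusted p = 3.48e-04). The endoplasmic reticulum chaperone gene Hspa5 was 17.46 ± 0.38 and 17.73 ± 0.23 (adjusted p = 0.411). The only higher member among 18 heat shock genes was Hspb1, a small heat shock protein gene, which was 4.13, 4.02, 3.74, 6.18 and 3.64 in WT and 6.73, 7.53, 6.78, 8.26 and 7.86 in KO, a rise of at least 2.42 (adjusted p = 1.11e-04). There were 2 such members without WT 1, and the inducible Hspa1a was 7.09 ± 0.48 and 7.36 ± 0.31 (adjusted p = 0.813).

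Of 31 proteasome subunit genes 4 were higher, and 2 without the 3 arrays and without WT 4 or KO 2. Psmd13, a regulatory particle subunit gene, had a difference of 0.77 (adjusted p = 8.08e-04) and Psmd8 of 0.97 (adjusted p = 0.00175). Of 28 lysosome and autophagy genes 2 were higher (7.14%) and 1 was lower (3.57%), against 4.70% and 5.48% of all genes. There were 4 higher without WT 1, and 0 lower without KO 1 or 2 without KO 5. The lysosomal hexosaminidase gene Hexa rose (difference 0.83, adjusted p = 0.00121). The 22 circadian clock and output genes gave 0 calls in limma, with 3 at an unadjusted p below 0.05.

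NRF2 is the transcription factor that switches on glutathione, thioredoxin, quinone reduction and NADPH supply under oxidative or electrophilic stress. Of 46 measured NRF2 target and NADPH supply genes 26 were higher (56.5%) and 1 lower (2.17%), with a median difference of 0.67. Over all genes the shares were 4.70% and 5.48%. Leaving out any 1 array gave 24 to 27 higher, and leaving out the 3 arrays gave 19. The mean over the members was 11.97, 11.73, 11.87, 11.81 and 11.82 in WT and 12.60, 12.73, 12.47, 13.06 and 12.54 in KO, highest in KO 4, which carried muscle transcripts. Nqo1, the quinone reductase gene and defining target, was 7.85, 7.41, 8.13, 7.72 and 7.82 in WT and 9.44, 9.12, 9.29, 9.72 and 8.53 in KO (difference 1.43, adjusted p = 5.83e-04). Srxn1, the sulfiredoxin gene, named after its values were seen, was 6.98, 7.34, 8.01, 6.68 and 6.56 in WT and 9.84, 11.36, 10.16, 12.64 and 10.12 in KO (difference 3.71, adjusted p = 4.87e-06, 7-array difference 3.23).

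Ugdh, which makes the UDP-glucuronate used in conjugation, was 14.52, 12.79, 13.81, 13.74 and 12.94 in WT and 15.17, 15.75, 15.72, 15.57 and 15.37 in KO (difference 1.96, adjusted p = 3.86e-05). Sqstm1, the gene of the autophagy receptor p62, rose from 13.16 ± 0.23 to 14.28 ± 0.48 (difference 1.12), and the ferritin heavy chain gene Fth1 from 18.67 ± 0.07 to 19.11 ± 0.06 (difference 0.44). The heme oxygenase gene Hmox1, named after its values were seen, was called with all arrays (difference 1.23, adjusted p = 0.0109) and not without the 3 arrays (0.92, adjusted p = 0.0842). Akr1c13, an aldo-keto reductase gene, was the member that fell: it was 12.65, 12.57, 12.46, 12.55 and 12.69 in WT and 9.96, 9.77, 10.42, 9.96 and 11.26 in KO (difference -2.31, adjusted p = 6.21e-07). The members lower were 2 without WT 1 or without KO 2, and 3 with array medians set equal. The antioxidant response core TGACNNNGC was searched on both strands. It was found in the promoter window of 4 of 22 members called higher with an entry (18.2%). It was also found in that of 7 of 19 members not called higher, against 15% of all tested genes with an entry.

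Glutathione S-transferase genes split by class. Of 24 measured, 8 were higher and 7 lower, and without the 3 arrays 9 and 7. Those higher were of the alpha, mu and pi classes and the microsomal Mgst3, and those lower were of the theta, zeta, omega and kappa classes together with Gstp3. The alpha class gene Gsta2 was 12.68, 11.32, 11.10, 12.75 and 10.99 in WT and 16.07, 15.74, 15.91, 16.35 and 15.76 in KO (difference 4.20, SE 0.35, adjusted p = 3.54e-07). Gstm3 of the mu class was 15.45, 14.37, 14.79, 14.91 and 14.32 in WT and 17.99, 17.61, 17.66, 18.44 and 17.41 in KO (difference 3.05, adjusted p = 3.54e-07). The pi class gene Gstp1 was 13.68 ± 0.85 in WT and 16.17 ± 0.18 in KO (difference 2.48, adjusted p = 1.08e-05). In these 3 genes the SD was smaller in KO than in WT, and the groups did not overlap. For Gsta2, among the largest rises, the choice required this separation. Gstm3 and Gstp1 were named for a small adjusted p, which makes such separation likely.

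The 5 other rises, of which all but Gstm1 and Gstp2 were named after their values were seen, were Gstp2 (difference 2.39), Mgst3 (1.98), Gsta4 (1.64), Gstm2 (0.80) and Gstm1 (0.71). The falling genes were likewise chosen after their values were seen. Gstt3 was 11.74, 12.20, 11.21, 11.04 and 11.78 in WT and 9.94, 9.71, 9.44, 9.32 and 11.14 in KO (difference -1.68, adjusted p = 0.00115), and Gstt1 was 13.25, 14.40, 14.05, 13.39 and 13.58 in WT and 12.26 to 12.68 in KO (difference -1.26, adjusted p = 6.96e-04). Gstp3, a pi class paralog, fell from 10.18 ± 0.31 to 8.72 ± 0.11 (difference -1.46, adjusted p = 2.60e-04) while Gstp1 and Gstp2 rose. The Gstp copies are similar in sequence, so signal may be shared between them. Gstt2 (difference -1.03), Gsto1 (-0.93) and Gstz1 (-0.59) also fell, and Gstk1 (-0.97, adjusted p = 0.0208) lost its call without KO 1 (-0.82, adjusted p = 0.066) or KO 2 (-0.91, adjusted p = 0.0554).

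**Figure D4:**
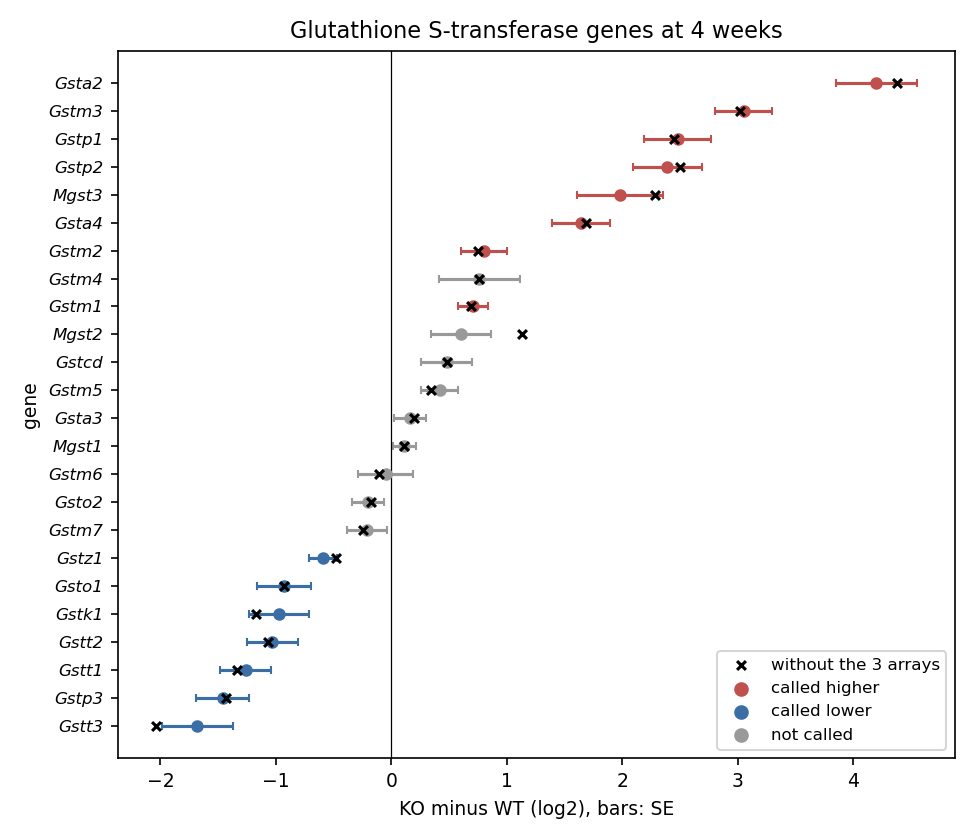
KO minus WT log2 difference of 24 glutathione S-transferase genes with SE bars, coloured by call, and the difference without the 3 arrays as a cross. Gsta2 at 4.20, Gstm3 at 3.05 and Gstp1 at 2.48 lead the rises, and Gstt3 at -1.68 leads the falls.

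Other drug-metabolizing enzymes mostly fell where they passed the test. Of 45 P450 genes of families 1 to 3, 11 were lower and 3 higher (9 and 4 without the 3 arrays). Cyp2c69 was 16.77, 16.99, 16.45, 17.62 and 17.08 in WT and 14.91, 13.85, 13.33, 14.66 and 14.18 in KO (difference -2.80, adjusted p = 3.25e-06), and the epoxygenase gene Cyp2j5 fell from 16.97 ± 0.14 to 15.97 ± 0.22. Cyp2u1 rose from 9.17 ± 0.63 to 10.80 ± 0.18 (difference 1.63, adjusted p = 7.75e-04). The inducible Cyp2b10 was 10.03, 6.67, 11.20, 10.86 and 11.77 in WT and 9.35, 7.78, 11.93, 8.90 and 9.62 in KO, a wide spread in both groups (adjusted p = 0.719).

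The Cyp4 genes, which hydroxylate fatty acids at the end of the chain, had 7 of 16 members lower and 5 without the 3 arrays. Cyp4a32 was 12.17 ± 0.59 in WT and 10.01 ± 0.41 in KO (difference -2.16, adjusted p = 0.00202). Cyp4f17 fell from 6.94 ± 0.38 to 5.73 ± 0.31 (difference -1.21) and Cyp4f15 from 13.09 ± 0.21 to 12.03 ± 0.53 (difference -1.05). Cyp4a14, a PPARalpha target, was 16.88, 17.50, 17.33, 16.90 and 17.44 in WT and 16.58, 15.87, 16.12, 15.49 and 15.34 in KO. Its groups did not overlap, but it was not called in the fit of all 20 arrays (difference -1.33, adjusted p = 0.146), and with only the 10 arrays of 4 weeks it was called (adjusted p = 0.00379).

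Sulfotransferase genes had 7 of 21 members lower and 4 without the 3 arrays, and 4 also without WT 1, KO 1 or KO 4. Sult3a1 was 5.99, 10.47, 8.76, 7.72 and 7.94 in WT and 5.12, 5.72, 5.04, 4.93 and 4.91 in KO (difference -3.03, adjusted p = 3.07e-04). Sult2a8, a bile acid sulfotransferase gene, was 15.71, 17.69, 17.47, 16.50 and 17.56 in WT and 15.84, 15.52, 14.73, 14.74 and 15.35 in KO (difference -1.75, adjusted p = 6.57e-04). WT 1 was the lowest WT array for both genes and overlapped KO for Sult2a8. The estrogen sulfotransferase gene Sult1e1 was 6.01 ± 1.33 and 6.15 ± 1.69 (adjusted p = 0.934).

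Of 13 UDP-glycosyltransferase and supply genes 4 were lower and 2 higher. Ugt3a1 was 10.12, 12.21, 11.19, 10.70 and 11.67 in WT and 9.19, 8.64, 7.80, 8.23 and 8.12 in KO (difference -2.78, adjusted p = 1.59e-05), and Ugt3a2 fell from 16.82 ± 0.41 to 15.57 ± 0.14 (difference -1.25). Carboxylesterase genes, whose products cleave esters of drugs and lipids, had 7 of 17 members lower, 4 without the 3 arrays or without WT 5. Ces1f was 12.49, 13.67, 13.34, 13.06 and 13.94 in WT and 11.59, 10.55, 9.90, 10.86 and 10.11 in KO (difference -2.70, adjusted p = 1.87e-05). Ces1e fell from 12.44 ± 0.31 to 10.45 ± 0.66 (difference -1.99). Ces1d, which encodes a triglyceride hydrolase, had a difference of -1.30 (adjusted p = 0.00716) and -1.19 without the 3 arrays (adjusted p = 0.0592).

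Among 34 organic ion transporter genes 7 were lower and 3 higher, and 6 and 2 without the 3 arrays. Slc22a30 was 13.94, 14.68, 14.06, 13.76 and 14.66 in WT and 12.28, 12.43, 11.67, 12.29 and 11.83 in KO (difference -2.12, adjusted p = 8.19e-07). Slc22a28 fell from 11.95 ± 0.40 to 9.87 ± 0.38 (difference -2.08) and the cation efflux transporter gene Slc47a1 from 11.36 ± 0.28 to 9.53 ± 0.59 (difference -1.83). Abcb1a, a drug efflux pump gene named after its values were seen, was 9.10, 8.76, 9.11, 10.21 and 9.16 in WT and 10.44, 10.44, 11.45, 10.93 and 10.65 in KO (difference 1.51, adjusted p = 0.00353). The number of members higher was 1 without WT 1, WT 2, WT 5, KO 3 or KO 4.

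Steroid dehydrogenase and aldo-keto reductase genes had 12 of 31 members lower and 1 higher, and 11 and 1 without the 3 arrays. Akr1c12 was 12.05, 11.93, 11.81, 11.76 and 12.31 in WT and 10.16, 9.81, 10.03, 9.95 and 10.67 in KO (difference -1.85, SE 0.16, adjusted p = 4.16e-07). The retinal reductase gene Rdh11 fell from 12.51 ± 0.15 to 10.54 ± 0.45 (difference -1.98). The member that rose was Hsd17b13, a lipid droplet dehydrogenase gene, from 17.10 ± 0.15 to 18.08 ± 0.21 (difference 0.97, adjusted p = 0.00238). Hsd3b5 was 6.45, 11.87, 10.30, 8.62 and 13.42 in WT and 8.75, 8.51, 5.73, 9.60 and 5.72 in KO (adjusted p = 0.120), and without WT 1 it was called (difference -3.39, adjusted p = 0.0142).

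Cholesterol synthesis and uptake genes, which SREBP2 switches on when sterols are low, had 11 of 23 members lower (47.8%, against 5.48% of all genes), with a median difference of -0.82. Without the 3 arrays 9 were lower, and the count was 7 without WT 1, 6 without KO 3 and 7 without KO 4. Stard4, a sterol carrier gene, was 12.02, 12.18, 12.02, 11.62 and 12.31 in WT and 10.59, 10.12, 9.30, 10.02 and 10.21 in KO (difference -1.98, adjusted p = 1.92e-06). Msmo1 fell from 11.79 ± 0.28 to 10.29 ± 0.16 (difference -1.49), and Hsd17b7 from 13.65 ± 0.59 to 11.93 ± 0.36 (difference -1.71), both enzymes between lanosterol and cholesterol. Further up the pathway Sqle, the squalene epoxidase gene, was 12.82, 11.99, 11.94, 11.72 and 11.08 in WT and 10.54, 10.58, 9.81, 10.59 and 10.85 in KO (difference -1.44, adjusted p = 0.00682), named after its values were seen. The letters TCACNCCAC of the sterol regulatory element were in 0 of 8 promoter windows of called members with an entry, in 1 of 11 of uncalled members and in 1.43% of all tested genes with one.

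In bile acid synthesis and its feedback 8 of 22 genes were lower, 6 without the 3 arrays and 5 without WT 2, WT 3, WT 5, KO 1 or KO 4. Fgfr4, the receptor gene through which intestinal FGF15 restrains synthesis, was 7.20, 7.70, 7.55, 6.96 and 7.73 in WT and 5.50, 4.79, 5.30, 4.88 and 6.17 in KO (difference -2.10, adjusted p = 2.78e-05). The nuclear receptor gene Nr5a2 fell from 11.94 ± 0.23 to 10.86 ± 0.19 (difference -1.08), and the bile acid CoA ligase gene Slc27a5 from 16.47 ± 0.21 to 15.62 ± 0.36 (difference -0.85). Cyp7a1, the rate-limiting enzyme gene, was 15.40, 13.70, 14.34, 15.12 and 15.08 in WT and 15.44, 14.92, 14.71, 13.61 and 15.29 in KO (difference 0.07, adjusted p = 0.956).

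Fatty acid oxidation, ketogenesis and PPARalpha target genes had 10 of 34 members lower and 1 higher. There were 9 lower without the 3 arrays, 6 without WT 2 or KO 2 and 5 without WT 5. The acyl-CoA thioesterase gene Acot4 was 6.89, 7.51, 6.65, 7.31 and 7.50 in WT and 4.85, 5.20, 5.76, 5.89 and 6.24 in KO (difference -1.58, adjusted p = 5.01e-05), and Acot3 was 8.03, 8.90, 7.31, 8.81 and 8.86 in WT and 6.26, 5.39, 6.72, 5.46 and 6.79 in KO (difference -2.26, adjusted p = 5.79e-04). Neither overlapped between groups. Ppara itself was 11.63 ± 0.55 and 11.16 ± 0.58 (adjusted p = 0.477). The higher member was Fgf21, and there were 2 without WT 4.

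Of 30 lipogenesis, elongase and desaturase genes 3 were higher and 4 lower. Besides Elovl3, Elovl7 was 4.62, 5.29, 5.03, 4.84 and 3.78 in WT and 7.12, 7.34, 7.47, 8.10 and 6.44 in KO, a rise of at least 2.28 (adjusted p = 1.03e-04). Fads1, the delta-5 desaturase gene, fell from 14.97 ± 0.06 to 14.15 ± 0.20 (difference -0.81, adjusted p = 0.00135). The fatty acid synthase gene Fasn was 13.30 ± 0.47 and 12.91 ± 0.62 (adjusted p = 0.677). Of 36 lipid droplet and lipoprotein genes 3 were higher and 4 lower, among them Apom, the apolipoprotein that carries sphingosine phosphate, which was 12.15 ± 0.25 in WT and 10.31 ± 0.65 in KO (difference -1.83, adjusted p = 1.11e-04). The lipase cofactor gene Abhd5 rose from 10.33 ± 0.22 to 11.06 ± 0.14 (difference 0.73). The droplet coat gene Plin2 was 13.84 ± 0.27 and 14.39 ± 0.34 (adjusted p = 0.140).

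In glycolysis, gluconeogenesis and glycogen 5 of 42 genes were lower and 1 higher, and 3 were lower without KO 2. The liver pyruvate kinase gene Pklr, a ChREBP target, was 10.72, 13.21, 13.05, 10.35 and 12.67 in WT and 9.32, 10.05, 8.66, 10.38 and 8.99 in KO (difference -2.52, adjusted p = 0.00189), with WT 4 and KO 4 overlapping. Foxo1, the insulin-restrained transcription factor gene, fell from 10.77 ± 0.20 to 9.49 ± 0.42 (difference -1.28). Tkfc, which phosphorylates triose sugars, rose from 13.53 ± 0.39 to 14.59 ± 0.50 (difference 1.05, adjusted p = 0.00994), and 3 members were higher without WT 4. The glucose-6-phosphatase gene G6pc was 15.17, 17.09, 16.94, 14.82 and 14.75 in WT and 15.49, 14.13, 14.22, 15.13 and 13.50 in KO (difference -1.26, adjusted p = 0.0691), and it was called without WT 4 (adjusted p = 0.035), WT 5 (0.0377) or KO 1 (0.0363).

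Amino acid catabolism and urea cycle genes had 11 of 52 members lower, 10 without the 3 arrays and 17 without KO 5. Kyat1, a kynurenine aminotransferase gene, was 14.21 ± 0.33 in WT and 12.31 ± 0.47 in KO (difference -1.91, adjusted p = 4.01e-05). Prodh2, a hydroxyproline dehydrogenase gene, was 13.05, 13.79, 13.36, 13.11 and 13.14 in WT and 11.15, 10.87, 11.81, 10.78 and 12.96 in KO (difference -1.78, adjusted p = 0.00130). Bckdhb, a subunit gene of the branched-chain keto acid dehydrogenase, fell from 12.55 ± 0.15 to 11.80 ± 0.20 (difference -0.75). KO 5 was the highest KO array for all 3. The first urea cycle enzyme gene Cps1 was 18.17 ± 0.13 and 18.12 ± 0.12 (adjusted p = 0.868). Among 51 respiratory chain genes 5 were lower (9.8%, against 5.48% of all genes), 3 without WT 4 or KO 1 and 8 without KO 5. Ndufs8 fell from 13.31 ± 0.29 to 12.45 ± 0.36 (difference -0.86), and Cox8a from 14.99 ± 0.05 to 14.24 ± 0.27 (difference -0.75).

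Genes of both liver zones were among those that fell. Of 21 pericentral genes 7 were lower and of 20 periportal genes 6 were lower and 1 higher, and 6 and 5 were lower without the 3 arrays. The pericentral Rgn, which encodes regucalcin, was 17.75, 17.88, 18.04, 17.36 and 17.92 in WT and 17.05, 16.82, 16.75, 17.05 and 17.07 in KO (difference -0.84, adjusted p = 3.48e-04), and Cyp2e1, named after its values were seen, fell from 18.34 ± 0.27 to 17.75 ± 0.13 (difference -0.60). The periportal Cyp2f2 was 16.52, 17.58, 17.01, 16.55 and 17.11 in WT and 15.32, 16.10, 15.55, 15.94 and 16.44 in KO (difference -1.08, adjusted p = 0.00227), and the serine transporter gene Sfxn1 fell from 13.14 ± 0.19 to 12.05 ± 0.33 (difference -1.09). Hsd17b13, given above, was the periportal member that rose, and there were 2 without WT 1, WT 4 or KO 5 and without the 3 arrays.

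Hepatocyte transcription factor and nuclear receptor genes had 8 of 43 members lower, 6 without the 3 arrays and 5 without WT 2, WT 5, KO 2 or KO 4. The xenobiotic receptor gene Nr1i3 (CAR) fell from 10.59 ± 0.67 to 9.11 ± 0.47 (difference -1.47, adjusted p = 0.00575), and its partner Rxra from 10.78 ± 0.27 to 10.03 ± 0.24 (difference -0.75). Hnf4a was 14.10, 13.53, 13.50, 13.60 and 13.91 in WT and 13.23, 13.11, 13.54, 13.16 and 14.21 in KO (difference -0.28, adjusted p = 0.574).

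Of 27 major secreted proteins 9 were lower and 5 without the 3 arrays. Itih1, an inhibitor heavy chain gene, was 15.76, 15.76, 15.60, 15.52 and 15.84 in WT and 14.48, 14.35, 14.25, 14.33 and 15.20 in KO (difference -1.17, adjusted p = 3.95e-05), and Fetub fell from 15.65 ± 0.17 to 14.68 ± 0.31 (difference -0.97). Serpina1e, an alpha-1-antitrypsin paralog, was 18.73, 19.03, 18.66, 19.22 and 19.22 in WT and 18.22, 18.60, 18.35, 17.07 and 17.56 in KO (difference -1.01, 7-array difference -0.52, adjusted p = 0.0461). The 2 KO arrays with muscle transcripts were thus the lowest. The mean over the 27 was 17.40 to 17.56 in WT and 16.70 to 17.22 in KO, lowest in KO 4.

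Coagulation genes had 6 of 26 members lower, 4 without the 3 arrays, 3 without WT 2 or KO 1 and 2 without KO 4. F11, the gene of coagulation factor XI, was 12.27, 12.95, 12.54, 12.37 and 12.54 in WT and 10.92, 11.21, 10.60, 10.45 and 11.34 in KO (difference -1.63, adjusted p = 2.70e-06), and the plasmin inhibitor gene Serpinf2 fell from 15.93 ± 0.13 to 15.10 ± 0.43 (difference -0.84). Of 30 complement genes 7 were lower and 3 higher, and 7 and 1 without the 3 arrays. Masp1 of the lectin pathway fell from 13.77 ± 0.13 to 13.02 ± 0.24 (difference -0.75), and the C1 inhibitor gene Serping1 was 16.78, 16.84, 16.19, 15.81 and 16.13 in WT and 14.72, 15.33, 15.50, 15.18 and 15.97 in KO (difference -1.01, adjusted p = 0.00339). The count of higher complement genes was 1 without WT 2, WT 4, WT 5, KO 3 or KO 4 and 0 without KO 2.

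Liver genes that differ between the sexes in adult mice moved unevenly. Of 33 female-biased genes 12 were lower and 1 higher, with a median difference of -0.97, and of 30 male-biased genes 7 were higher and 4 lower, with a median of -0.12. Without the 3 arrays the counts were 10 and 2, and 6 and 5, and 2 male-biased genes were lower without WT 5. Gstp1 and Gstp2 on the male-biased list are also counted as glutathione S-transferases, and Cyp2c69 on the female-biased list as a P450 gene. Mup20, a major urinary protein gene of males, was 14.01 ± 1.44 in WT and 18.28 ± 0.84 in KO (difference 4.26, adjusted p = 5.27e-06). The female-biased member that rose was Ntrk2, a neurotrophin receptor gene, which was 5.21, 5.07, 6.64, 6.03 and 5.47 in WT and 7.55, 7.85, 8.67, 8.87 and 7.81 in KO (difference 2.47, adjusted p = 3.30e-05).

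The pattern did not extend to all genes of that kind. Among 9 major urinary protein genes Mup20 was the only one called with all arrays, and 2 were called without KO 5. Mup3 was 13.97, 17.67, 16.86, 14.77 and 17.88 in WT and 17.07, 17.96, 16.44, 18.08 and 14.78 in KO (adjusted p = 0.629). Cyp4a12a, a male-biased gene named after its values were seen, was 4.23, 6.90, 5.07, 5.27 and 9.35 in WT and 9.58, 13.45, 6.57, 13.58 and 5.29 in KO (difference 3.53, adjusted p = 0.0745), and was called without WT 5, KO 3 or KO 5. WT 1 was the lowest and WT 5 the highest WT array for Mup20, Mup3 and Cyp4a12a, and KO 5 was the lowest KO array for all 3. Of 18 growth hormone and IGF axis genes 4 were lower, and 2 without the 3 arrays. Igfals, which encodes the carrier subunit of circulating IGF, fell from 10.90 ± 0.67 to 8.91 ± 0.43 (difference -1.99, adjusted p = 2.44e-04), and the receptor gene Ghr from 16.37 ± 0.30 to 15.70 ± 0.20 (difference -0.66).

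**Figure D5:**
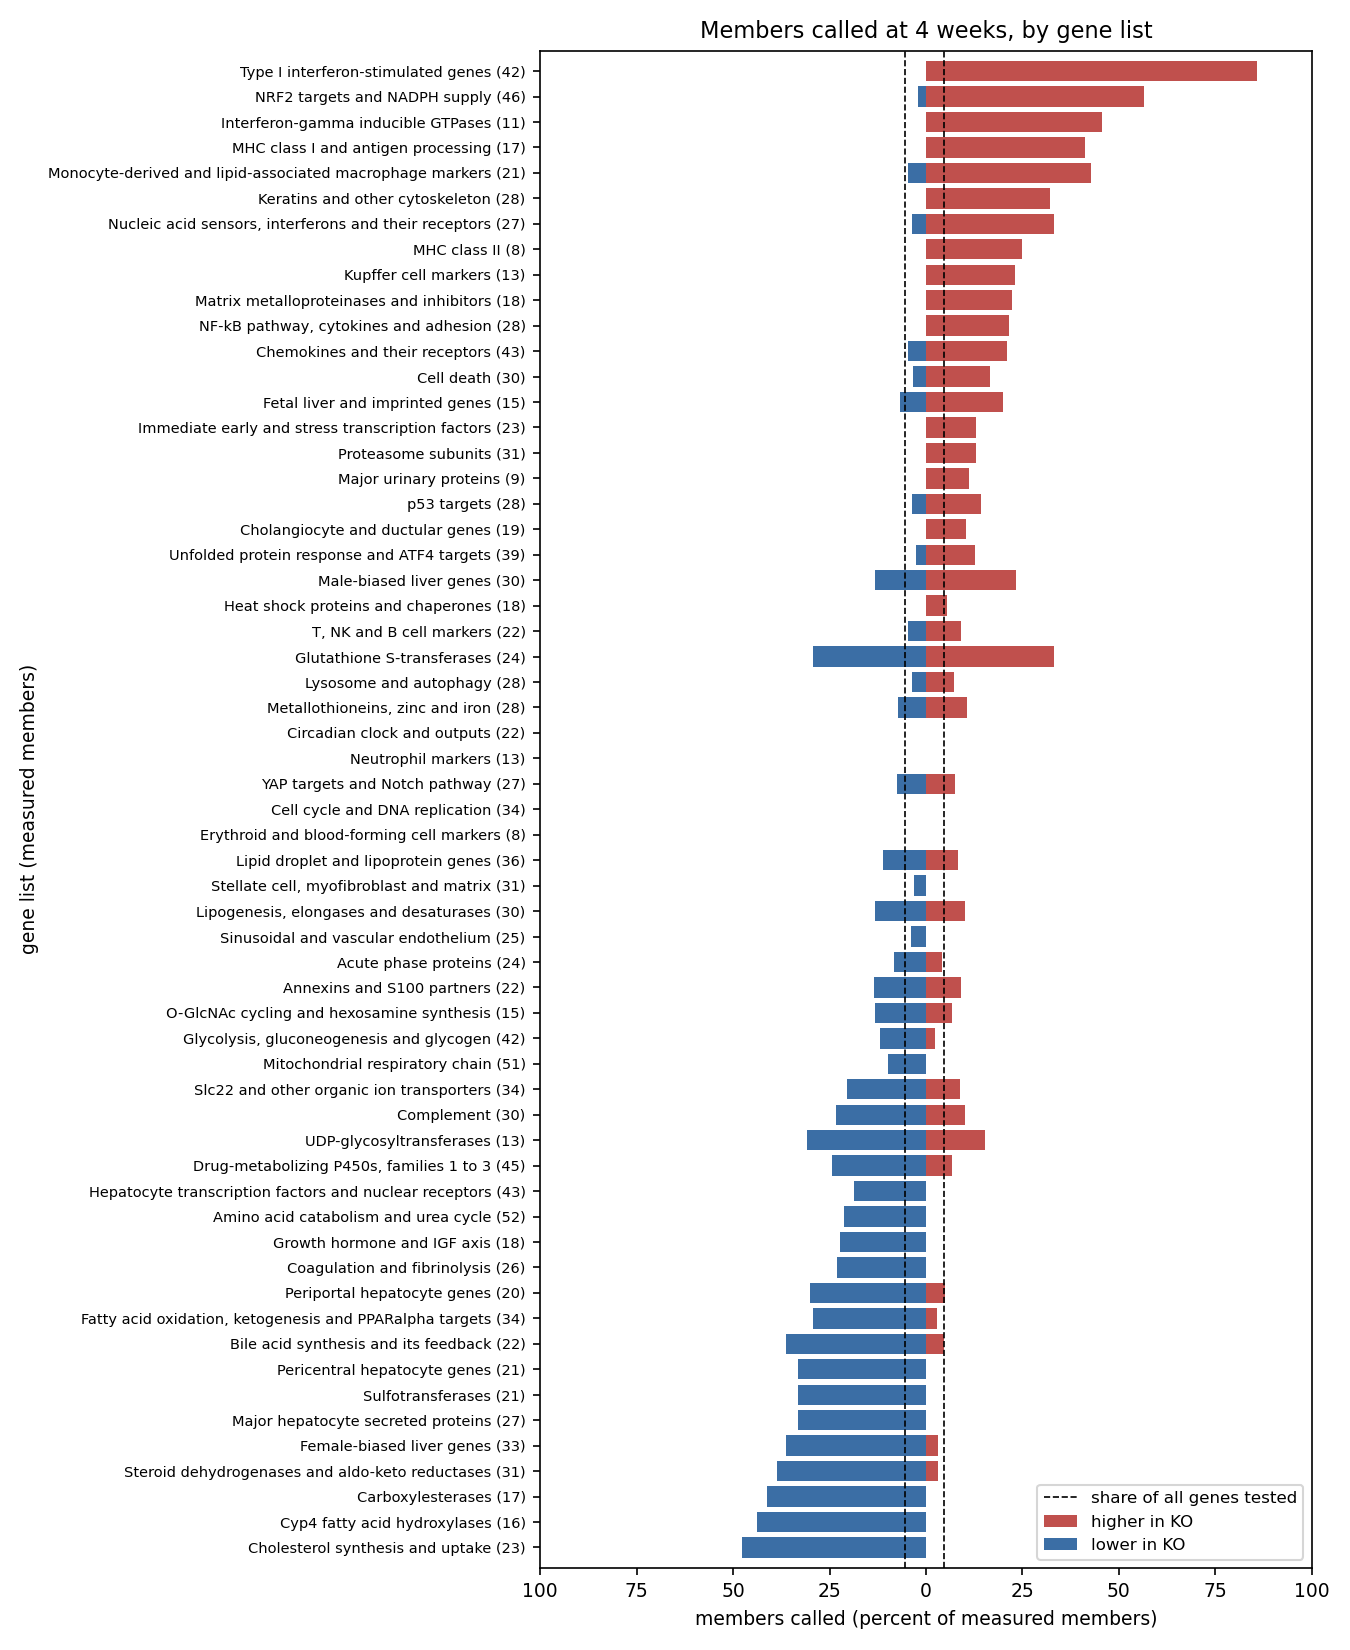
Share of measured members called higher (right) and lower (left) in KO for each gene list, with the number of measured members in brackets, and the share among all genes tested (4.70% higher, 5.48% lower) as dashed lines. Interferon-stimulated genes reach 85.7% higher and cholesterol genes 47.8% lower.

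At 8 weeks 1284 genes were called (6.58%). Of the genes called at 4 weeks 296 (14.9%) were called in the same direction at 8 weeks, which is 23.1% of the genes called there, and 15 were called in the opposite direction. The 2 comparisons share no array but were fitted with 1 estimate of spread. The difference between the ages passed the interaction test for 3.05% of all genes. Of 42 interferon-stimulated genes 3 were called at 8 weeks, with a median difference of 0.15, and the difference between the ages passed for 16. The cholesterol genes had 1 call at 8 weeks, and 1 of 23 differed between the ages. These 2 cholesterol counts are near the shares of all genes, 6.58% and 3.05%. Ogt had a difference of -0.27 at 8 weeks, and the change between ages, 1.16, had a limma adjusted p of 0.0307.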

How the data were processed

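RNA from 20 livers was measured on Clariom S Mouse arrays. The deposited log2 values were made by the authors with Affymetrix Expression Console and RMA, per the submitters' processing notes, in versions not given in the sources used here. They were used without further scaling. Arrays give no read depth, so precision rests on the number of arrays. Of 22206 features 19572 had 1 symbol and 2634 none. For 55 symbols with several features the brightest was kept, which left out 67 and gave 19505 genes. Groups came from the sample titles. limma 3.58.1 in R 4.3.3 (lmFit, eBayes) was fitted to all 20 arrays in 4 groups with 16 residual degrees of freedom, or 13 without the 3 arrays with muscle transcripts, with Benjamini-Hochberg adjustment over the 19505 genes. The fit was checked on simulated data.

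Named genes are Ogt, the 10 largest rises and 10 largest falls called with and without the 3 arrays and without overlap, the 5 next smallest adjusted p-values in each direction, and from each gene list up to 3 called members with the smallest adjusted p and 1 key member. Gm-number and Rik symbols were not named. Other genes are marked as named after their values were seen. The members and lists were chosen with earlier results of these data known. Some genes are on more than 1 list, as Gsta2 and Gstm3 are among NRF2 targets and glutathione S-transferases, so list counts are not independent. No list was given a set test.

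Promoter windows are from RefSeq, GRCm38.p6. The alternatives tried were other scalings, a filter on dim genes, all features, the mean of several features, an intensity trend, other sets of arrays, the replicate number as a block and leaving out each array. The replicate numbers did not meet the criteria for pairing, and no exact test of 5 against 5 arrays can give a p below 0.00794.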

Additional observations from a re-analysis of the deposited data

Results flagged for a closer look

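For the genes listed here the KO effect differed between the ages in limma's interaction test, with adjusted p below 0.05 over all genes. The values are the effect at 8 weeks minus the effect at 4 weeks, in log2 units. Most of these genes were named for a large or clear difference at 4 weeks, which is part of the value given. A smaller effect at 8 weeks is therefore partly built into the choice of genes. Among genes called higher at 4 weeks the difference was -6.85 for Elovl3, -4.26 for Ifit1, -4.19 for Mup20, -3.65 for Cmpk2, -3.51 for Rsad2, -3.44 for Irf7, -3.33 for Gstp2, -3.33 for Cxcl10 and -3.31 for Gstp1. It was further -3.30 for Ifit3b, -3.29 for Saa3, -3.01 for Srxn1, -3.01 for Ifit3, -3.00 for Hspb1, -2.90 for Gsta2, -2.84 for Mmp13, -2.36 for Cyp2u1 and -2.31 for Afp. Next it was -2.20 for Fgf21, -1.88 for Mx1, -1.87 for Usp18, -1.77 for Ddit3, -1.70 for Trmt10a, -1.65 for Tnfrsf12a, -1.65 for Ifi213, -1.58 for Ugdh and -1.51 for Ms4a4c. Among the remaining genes it was -1.50 for Krt18, -1.35 for Gsta4, -1.11 for Sqstm1, -1.10 for Ifih1, -1.07 for Mdm2, -0.80 for Abhd5 and -0.73 for H2-K1.

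Among genes called lower at 4 weeks the difference of the effects was 6.51 for Slc22a26, 4.18 for Hao2, 3.21 for Sult3a1, 3.19 for Cyp2c69, 2.87 for Acot3, 2.85 for Hsd3b1, 2.20 for Fabp5, 2.19 for Fgfr4 and 2.12 for Rdh11. It was further 2.11 for Ces1f, 1.86 for Mest, 1.67 for Hint2, 1.67 for Kyat1, 1.63 for Akr1c13, 1.52 for Slc47a1, 1.52 for Slc22a30, 1.45 for Dlg3 and 1.34 for Ndufa3. Next it was 1.33 for Acot4, 1.27 for Stard4, 1.26 for Stab2, 1.21 for Akr1c12, 1.20 for F11, 1.17 for Slc22a28, 1.16 for Ogt, 1.04 for Itih1 and 1.01 for Rgn. Among the remaining genes it was 0.99 for Fads1, 0.98 for Zap70, 0.81 for Nr5a2 and 0.78 for Fetub. The remaining genes either missed the threshold at 4 weeks or moved further the same way at 8 weeks: 3.30 for Cyp4a14, 2.21 for Krt19, 3.52 for Mmp2, 2.44 for Ntrk2 and 1.34 for Vcam1. No cause of these differences was tested.

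In some groups of 5, 1 array lay far from the other 4 by Dixon's test at the 95% level. Chance alone gives this in about 1 group in 20. Over the many genes named here it gives a list of such arrays, so those below are not results in themselves. Fabp5 was 10.26 in KO 1 against 9.01 to 9.18 in the other arrays of the group. Ifitm3 was 16.54 in KO 2 against 16.02 to 16.15 and Sult3a1 was 5.72 in KO 2 against 4.91 to 5.12 in the other arrays of the group. Ifit1 was 9.61 in KO 4 against 11.25 to 11.53 and Stab2 was 7.53 in KO 4 against 7.03 to 7.08 in the other arrays of the group. Tnfrsf12a was 11.20 in KO 4 against 9.58 to 10.03 in the other arrays of the group. Bst2 was 14.18 in KO 5 against 11.79 to 12.10 and Itih1 was 15.20 in KO 5 against 14.25 to 14.48 in the other arrays of the group. Oas3 was 4.08 in KO 5 against 3.40 to 3.56 in the other arrays of the group. Gbp3 was 10.15 in WT 1 against 7.13 to 7.51 and Igtp was 14.12 in WT 1 against 8.01 to 8.79 in the other arrays of the group. Isg15 was 6.99 in WT 1 against 5.13 to 5.38 and Saa1 was 11.93 in WT 1 against 6.81 to 7.10 in the other arrays of the group. Saa3 was 8.81 in WT 1 against 7.05 to 7.47 in the other arrays of the group. Kyat1 was 14.80 in WT 2 against at most 14.16 in the other arrays of the group. Gstk1 was 13.91 in WT 3 against 14.36 to 14.44 in the other arrays of the group. Abcb1a was 10.21 in WT 4 against 8.76 to 9.16 and Acta1 was 15.89 in WT 4 against 4.72 to 6.11 in the other arrays of the group. B2m was 18.77 in WT 4 against 19.16 to 19.30 and Hspb1 was 6.18 in WT 4 against 3.64 to 4.13 in the other arrays of the group. Gstp3 was 9.64 in WT 5 against 10.22 to 10.44 in the other arrays of the group.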

How the results depend on the processing

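The fall of Ogt and the counts of 917 genes higher and 1068 lower kept their direction, and each count stayed within 1.5 times, under every alternative run. Leaving out 1 array at a time gave 689 to 889 genes higher, 791 to 1078 lower and an Ogt difference of -1.24 to -1.60. Without the 3 arrays with muscle transcripts there were 695 and 975 (Ogt -1.62), and with only the 7 remaining arrays of 4 weeks, an alternative chosen after seeing the data, 693 and 1082. Only the 10 arrays of 4 weeks gave 867 and 1031, quantile normalization 974 and 1021, the filter on dim genes 960 and 1125, all features 1002 and 1143, and an intensity trend 866 and 1027. The replicate block gave 844 and 977 (Ogt -1.43). Deviations of same-numbered arrays correlated at 0.139, 0.32, 0.159, 0.479 and -0.146 for numbers 1 to 5. WT 4 and KO 4 both carried muscle transcripts, and KO 5, which did too, also correlated best with WT 4. The check therefore cannot tell whether same-numbered samples were paired. KO arrays 2 and 4 of the 5 correlated best with the WT array of their own number.

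Of 235 named genes with a tested difference, called or not, 19 lost their call without the 3 arrays and 26 with only the 7 arrays of 4 weeks. With only the 10 arrays of 4 weeks 7 lost it, under the replicate block 5 and on leaving out 1 array 4 to 11. Many of these genes were named for a small p, and the largest rises and falls had to be called without the 3 arrays. Their losses therefore do not measure those of all calls: 639 of all 1985 called genes were lost without the 3 arrays. Limits remain: 1 feature per gene, near-identical copies, values above 16 on a scale that may be stretched, sex and Cre driver not stated in the labels, and tissue RNA from mixed cells. For genes with 1 group mean not above background the bound stated as at least, and not the measured difference, is the lower limit.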
